A study of Mus musculus with 3 samples.

Results

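Bpifa1, Scgb1c1, Lypd2, Cbr2, Aox2 and Sult1e1 are 6 of the 32285 genes counted by single-cell RNA sequencing in mouse palate. They were picked by their counts, as leading genes of the simple epithelium. Their levels in that epithelium, their onset by stage, their presence in the same cells and their spread to other cells are therefore given as a description, with no test. The palatal shelves came from wild-type C57BL/6J embryos of 3 stages, named for the embryonic day: E13.5, E14.5 and E15.5. Tissue of 3 embryos was pooled for the 1 library of each stage, and the dissociated cells were methanol-fixed before droplet sequencing by the 10x Genomics method. Counts are of unique molecular identifiers (UMIs), tags that let repeat reads of the same molecule be counted once. There was no replicate of any stage, so every interval covers counting error alone and a stage cannot be told apart from its library.

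As background, the surface of the airway is kept moist and clear by secretory cells, which release antimicrobial and surface-active proteins, and by ciliated cells, which move the fluid. Secretory cells and the glands and supporting cells of the olfactory mucosa also hold many enzymes that modify inhaled or hormonal small molecules. Bpifa1 encodes a secreted protein of the PLUNC family that coats the upper airway. Scgb1c1 encodes a small secreted protein of the secretoglobin family, and Lypd2 a protein with a Ly6 domain that is predicted to be anchored at the cell surface. Cbr2 encodes a carbonyl reductase, Aox2 an aldehyde oxidase that needs a molybdenum cofactor, and Sult1e1 the sulfotransferase that adds sulfate to oestrogens. No sample label names nasal tissue, so the genes are called here by their names alone.

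The 6 genes lie on 6 chromosomes (GRCm38, GENCODE release 21). Bpifa1 is on the plus strand of chromosome 2 at 154142880 to 154149219, Scgb1c1 on the plus strand of chromosome 7 at 140845547 to 140846769, and Lypd2 on the minus strand of chromosome 15 at 74732247 to 74734329. Cbr2 is on the minus strand of chromosome 11 at 120729489 to 120732114, Aox2 on the plus strand of chromosome 1 at 58278326 to 58380259, and Sult1e1 on the minus strand of chromosome 5 at 87575969 to 87591594. All 6 are annotated as protein coding.

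The RefSeq promoter table (GRCm38.p6) held 5 of the 6 genes, each with the 300 bases from 250 before to 50 after the start. The 7 letters ATAAAAG were found on the gene's own strand in 4 of these 5. The motif was chosen after these sequences had been seen. The table holds 32851 promoters, and 3.38% of them have it on the gene's strand and 5.42% on either strand. The 4 stretches are shown because they place the shared letters, in capitals, at different distances from the annotated start. Each runs from 60 bases before the start, 5′ to 3′ on the gene's strand. Their positions are chr2:154142820-154142889 on the plus strand for Bpifa1, chr7:140845505-140845574 on the plus strand for Scgb1c1, chr11:120732012-120732081 on the minus strand for Cbr2 and chr5:87591602-87591671 on the minus strand for Sult1e1.
Bpifa1: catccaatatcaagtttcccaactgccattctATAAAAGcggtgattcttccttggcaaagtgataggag
Scgb1c1: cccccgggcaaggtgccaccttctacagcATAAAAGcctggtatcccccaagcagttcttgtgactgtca
Cbr2: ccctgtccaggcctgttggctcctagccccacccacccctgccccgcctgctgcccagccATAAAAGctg
Sult1e1: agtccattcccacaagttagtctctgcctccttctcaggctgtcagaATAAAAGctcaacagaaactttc
The capitals began 28 bases before the start in Bpifa1, 31 before it in Scgb1c1 and 13 before it in Sult1e1, and at the start base itself in Cbr2. RefSeq and GENCODE place the start differently in Scgb1c1, Cbr2 and Sult1e1, so these distances hold for the RefSeq starts. The letters TATAAA, which overlap ATAAAAG by all but their first letter, were found in Bpifa1 alone among the 5, and in 8.32% of all promoters on the gene's strand (13.6% on either). TATTTAC began 127 bases before the start of Bpifa1, on the gene's strand, and was in 1.45% of all promoters on that strand (3.04% on either). TGTTTAC was in none of the 5 and in 3.65% of all promoters on either strand. Aox2 had none of these 4 motifs in its 300 bases. A match is a description of the letters, not a binding site.

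In stage order the libraries totalled 11472663, 5293977 and 8313677 UMIs over 4236, 2079 and 3113 barcodes, with medians of 1614 to 1735 UMIs per barcode. E13.5 and E14.5 shared 3 barcode sequences, and each of these libraries shared 1 with E15.5. After filtering, 3583, 1750 and 2584 cells were left, and they formed 24 clusters when the 6 genes were kept out of the clustering. Among the clusters, 3 were named epithelial classes. The simple epithelial-like cells (135, 106 and 145 cells by stage) had 11 of 14 simple epithelial markers, 2 of 12 stratified and 0 of 10 ciliated ones. The simple markers were shared, with 11 of 14 in the ciliated-like and 10 of 14 in the stratified cells, which were set apart by 10 of 10 ciliated and 12 of 12 stratified markers. In the simple class the keratin Krt18 stood at 497 CPM (the usual unit for a gene's UMIs as a share of all UMIs of a group of cells), against a median of 7.70 over clusters, and the tight junction gene Cldn7 at 646 against 8.56. In the ciliated-like cells they stood at 603 and 749 CPM and in the stratified cells at 136 and 90.0 CPM. The stratified epithelial-like cells were 21, 53 and 176, and the ciliated-like cells 0, 11 and 16. The simple class was not uniform. Its leading genes were Ugt2a1, Otx2os1 and Ermn, and Oc90 was at 84, 62 and 0 UMIs by stage, in 7, 7 and 0 cells. Markers of other cell types were counted in the class as well: the list of 11 mesenchymal markers summed to 129, 733 and 923 CPM in the simple class by stage, 9 neuronal markers to 689, 1192 and 1062 CPM and 7 erythroid markers to 4934, 7345 and 6337 CPM. The 9 chondrogenic markers summed to 193, 599 and 75.2 CPM and 8 markers of mural cells, which surround vessels, to 40.5, 104 and 229 CPM. Whether these counts came from the class's own cells or from others, and their part in the values below, was not tested.

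Transcripts of the 3 genes for secreted or surface proteins were rare or absent in simple epithelial-like cells at E13.5 and present at E14.5 and E15.5. Bpifa1 had 0 UMIs in 135 cells at E13.5, 86 UMIs in 4 of 106 cells at E14.5 and 749 UMIs in 12 of 145 cells at E15.5. These are levels of 0, 241 (95% Poisson interval 192 to 297) and 1281 CPM (1191 to 1376). A count of 0 allows 3 counts, here and in every limit given for a 0, which is 7.60 CPM at E13.5. It is the base of each fold written with "at least", which leaves out the counting error of the later stage, so the lower end of the exact 95% interval of the ratio is given beside it. Bpifa1 was thus at least 31.7-fold higher at E14.5 than at E13.5 (25.2 with that error) and 5.32-fold higher at E15.5 than at E14.5 (4.25 to 6.73).

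Scgb1c1 had 0 UMIs at E13.5, 22 in 5 cells at E14.5 and 189 in 27 cells at E15.5, or 0, 61.6 (38.6 to 93.2) and 323 CPM (279 to 373). It was at least 8.10-fold higher (6.05 with the counting error) at E14.5 than at E13.5, and 5.25-fold higher at E15.5 than at E14.5 (3.37 to 8.58). Scgb1c1 and Bpifa1 were therefore the pair of secreted genes with no UMI in the first library. Lypd2 was already detected at E13.5, with 6 UMIs in 6 cells, and had 135 in 23 cells at E14.5 and 325 in 55 cells at E15.5. Its levels were 15.2 (5.58 to 33.1), 378 (317 to 447) and 556 CPM (497 to 620). The larger difference lay before E14.5, at 24.8-fold (11.1 to 68.9), and the later one was 1.47-fold (1.20 to 1.81). With at least 1000 genes per cell the log2 differences were close, at 2.59 and 2.26.

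The 3 enzyme genes differed in when they appeared. Cbr2 had 0 UMIs at E13.5, 33 in 14 cells at E14.5 and 396 in 44 cells at E15.5, or 0, 92.3 (63.6 to 130) and 677 CPM (612 to 747). It was at least 12.1-fold higher (9.34 with the counting error) at E14.5 than at E13.5 and 7.33-fold higher at E15.5 than at E14.5 (5.14 to 10.8). Aox2 had 13 UMIs in 9 cells, 57 in 15 cells and 352 in 64 cells, or 32.9 (17.5 to 56.3), 159 (121 to 207) and 602 CPM (541 to 668). It was thus seen in all 3 libraries, 4.84-fold higher at E14.5 than at E13.5 (2.62 to 9.64) and 3.77-fold higher at E15.5 than at E14.5 (2.85 to 5.08). Sult1e1 had 29 UMIs in 9 cells, 152 in 24 cells and 251 in 36 cells. Its levels were 73.5 (49.2 to 106), 425 (360 to 499) and 429 CPM (378 to 486). Sult1e1 was 5.79-fold higher at E14.5 than at E13.5 (3.87 to 8.93) and its ratio of E15.5 to E14.5 was 1.01 (0.822 to 1.24). At E13.5 1 cell held 13 of the 29 UMIs, and 41.2 CPM were left without it. The ratio of the last 2 stages was lower in parts of the class, with a log2 of -0.78 in cells with at most 10000 UMIs and -2.34 in sub-cluster 2, described below.

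**Figure D1:**
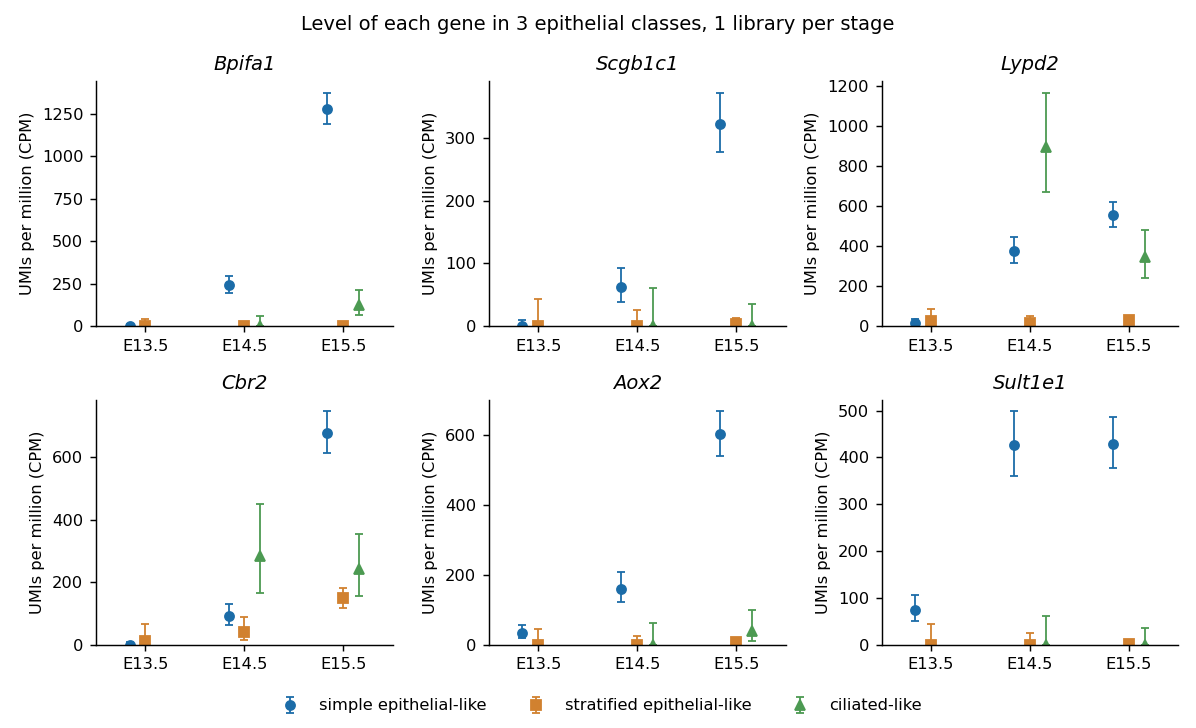
Level of each gene (CPM, y axis, a separate linear scale per gene) by stage (x axis) in simple epithelial-like, stratified epithelial-like and ciliated-like cells; points are summed counts of 1 library and bars are 95% Poisson intervals. Bpifa1 goes from 0 to 241 and 1281 CPM in the simple class, Sult1e1 stands at 425 and 429 CPM at the last 2 stages, and Lypd2 stands at 896 CPM in the ciliated-like cells at E14.5.

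All 6 genes were higher by over 1 on the log2 scale at E14.5 than at E13.5 in the simple class, where the same held for 17% of the 11494 genes with a mean of at least 5 CPM. At E15.5 against E14.5 it held for 4 genes (Bpifa1, Scgb1c1, Cbr2 and Aox2), and for 10.3% of 11741 genes. The genes were picked by their counts in these same libraries, so nothing is read from how many passed. The median log2 ratio over all genes was 0.12 for the first contrast and -0.04 for the second. When the cells of each whole library were summed, where fewer cells of a type and less RNA per cell cannot be told apart, the same 4 genes were higher at E15.5 than at E14.5, by 3.15-fold (Aox2) to 5.71-fold (Scgb1c1). Over the whole library this held for 1.02% of 12237 genes. Lypd2 was 1.17-fold higher there (0.994 to 1.39). Sult1e1 was 0.762 times its E14.5 level (0.637 to 0.912) with all cells. Without 1 cell of the mesenchymal lineage, described below, it was 1.07 times that level (0.875 to 1.30). Over all 3 epithelial classes together, Sult1e1 stood at 0.742 times its E14.5 level (0.604 to 0.914) and Lypd2 at 0.888 times (0.744 to 1.06), while the stratified share of these cells grew.

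Which simple cells were captured differed by stage too, so the stages were compared inside 1 sub-cluster. Sub-cluster 1, in which none of the 6 genes had over 7 UMIs, had 62, 13 and 26 cells by stage. The part of this shift in the class ratios was not tested. Sub-cluster 2, led by Gstm1, Ugt2a1, Gstm2 and Ermn, had 14, 16 and 57 cells by stage. Its 14 cells at E13.5 held 0 UMIs of Bpifa1, Scgb1c1, Lypd2 and Cbr2 and 2 UMIs of Aox2. In the sub-cluster Bpifa1 stood at 1540 CPM at E14.5 (76 UMIs in 2 cells) and 1652 CPM at E15.5 (329 UMIs in 5 cells). Scgb1c1 stood at 446 and 718 CPM. Those are log2 differences of 0.10 and 0.69, where the whole simple class gave 2.41 and 2.37. Cbr2 (203 and 939 CPM) and Aox2 (405 and 924 CPM) had log2 differences of 2.21 and 1.19, also lower than the 2.86 and 1.91 of the whole class. Sult1e1 stood at 421 CPM at E13.5 inside the sub-cluster (17 UMIs in 3 of 14 cells), 2392 CPM at E14.5 (118 UMIs in 11 of 16 cells) and 472 CPM at E15.5 (94 UMIs in 18 of 57 cells). The last 2 differ by a log2 of -2.34. The first and last were close, but 13 of the 17 UMIs at E13.5 were in 1 cell, and 116 CPM (31.6 to 297) were left without it. Without the top cell of each library the pair of values was 678 and 742 CPM for Bpifa1, and 275 and 385 CPM for Scgb1c1. In sub-cluster 4, which had 23, 16 and 30 cells, Sult1e1 went the other way, from 240 CPM at E14.5 (23 UMIs in 8 cells) to 638 CPM at E15.5 (149 UMIs in 12 cells). Without the top cell of each library those levels were 153 and 425 CPM. In sub-cluster 2 the genes higher by over 1 were 2 of 6, a share near the 30.5% of all 10770 genes tested there.

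Depth per cell also sets whether a gene is seen, so shares of cells were taken after thinning every cell to 1500 UMIs, which left 96, 66 and 97 simple cells by stage and left out 39, 40 and 48. Lypd2 was detected in 1.04%, 19.7% and 35.1% of these cells, and Aox2 in 4.17%, 13.6% and 35.1%. Cbr2 was detected in 0%, 12.1% and 29.9%. Sult1e1 was detected in 4.17%, 18.2% (exact 95% interval 9.76 to 29.6) and 20.6% (13.1 to 30), so its share, like its level, was close at the last 2 stages. Scgb1c1 was detected in 0%, 6.06% and 13.4% of the cells, and Bpifa1 in 0%, 3.03% and 10.3%. A count of 0 among the 96 cells at E13.5 allows a share of up to 3.12% of cells with a UMI. Unthinned, the shares at E15.5 ran from 8.28% for Bpifa1 to 44.1% for Aox2, at a median depth of 2111 UMIs. Endothelial-like and glial-like cells served as the background: 0 of 160 thinned cells held 5 of the genes and 1 cell held Lypd2 (0.625%). Unthinned, at a median of 1876 UMIs, 2 of the 262 background cells held Lypd2, 1 held Cbr2 and 1 held Aox2. In another group, at a median of 1858 UMIs, 0 of 348 endothelial-like and myeloid-like cells held any of the 6.

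The UMIs of these genes sat in few cells. At E15.5, 1 cell of 7915 UMIs held 240 of the 749 Bpifa1 UMIs (32.0%), and 3 cells held 70.4%. At E14.5, 1 cell of 2117 UMIs held 44 of the 86 Bpifa1 UMIs. Without the top cell of each library Bpifa1 stood at 118 CPM at E14.5 and 882 CPM at E15.5, which raises its ratio between them. For Scgb1c1, 1 cell held 74 of 189 UMIs at E15.5, and the level without it was 204 CPM. At E14.5 9 of its 22 UMIs were in 1 cell, which left 36.6 CPM, and 5 of the 13 Aox2 UMIs at E13.5 were in 1 cell, which left 20.6 CPM. The top Scgb1c1 cell at E15.5, with 19942 UMIs, also held 196 UMIs of Bpifa1, 73 of Lypd2, 56 of Cbr2 and 13 of Aox2, and 0 of Sult1e1. Aox2 was the most evenly spread, with 28.4% of its E15.5 UMIs in 3 cells, against 39.4% for Lypd2, 44.6% for Sult1e1, 46.0% for Cbr2 and 57.1% for Scgb1c1. The cell with the most Sult1e1 at E15.5 (57 of 251 UMIs) held 1 UMI of Scgb1c1 and none of the other 4 genes. Several of these cells were far deeper than the class median of 2111 UMIs. Among simple cells with at most 10000 UMIs, the log2 difference between E15.5 and E14.5 was 1.47 for Scgb1c1, 2.28 for Cbr2, 0.23 for Lypd2 and -0.78 for Sult1e1, against 2.37, 2.86, 0.56 and 0.01 in all cells.

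**Figure D2:**
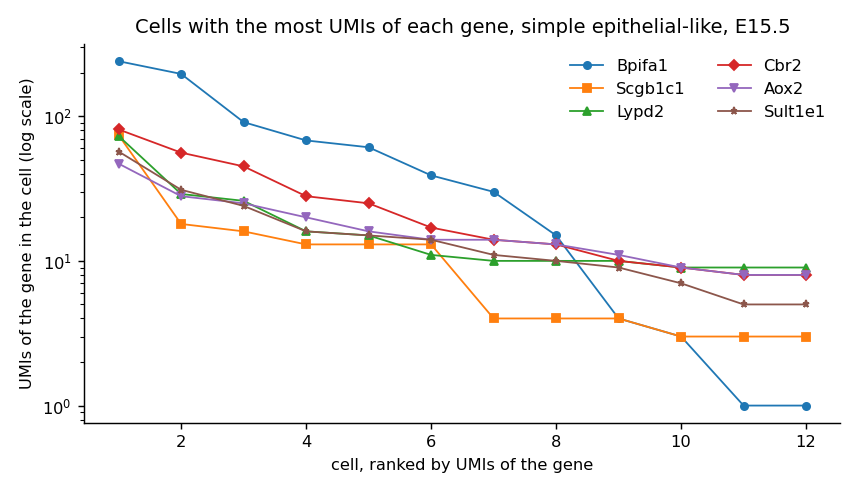
UMIs of each gene (y axis, log scale) in the 12 simple epithelial-like cells at E15.5 with the most of that gene, ranked (x axis). Bpifa1 starts at 240 and 196 UMIs and ends at 1 UMI in its last cell, so a few cells carry its level.

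The genes were detected together in the same cells, in a larger share of cells at each later stage. After thinning, at least 1 of the 6 genes was detected in 9 of 96 cells at E13.5 (9.38%, 4.38 to 17.1), 27 of 66 at E14.5 (40.9%, 29.0 to 53.7) and 58 of 97 at E15.5 (59.8%, 49.3 to 69.6). At least 3 were detected in 0, 2 and 30 cells, which is 0%, 3.03% (0.369 to 10.5) and 30.9% (21.9 to 41.1). Of the thinned E15.5 cells 22 held exactly 3 genes and 18 exactly 1, and at full depth 21 held exactly 3 and 27 exactly 1. At full depth 1 of 135 cells at E13.5 (0.741%) and 12 of 106 at E14.5 (11.3%, 5.99 to 18.9) held at least 3 genes, so the gap to E15.5 was smaller than in thinned cells. At E15.5, 46 of 145 cells did (31.7%, 24.3 to 40.0), 11 held at least 5, and 1 cell held all 6. At E15.5, 54 cells (37.2%) of the class held none of them.

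**Figure D3:**
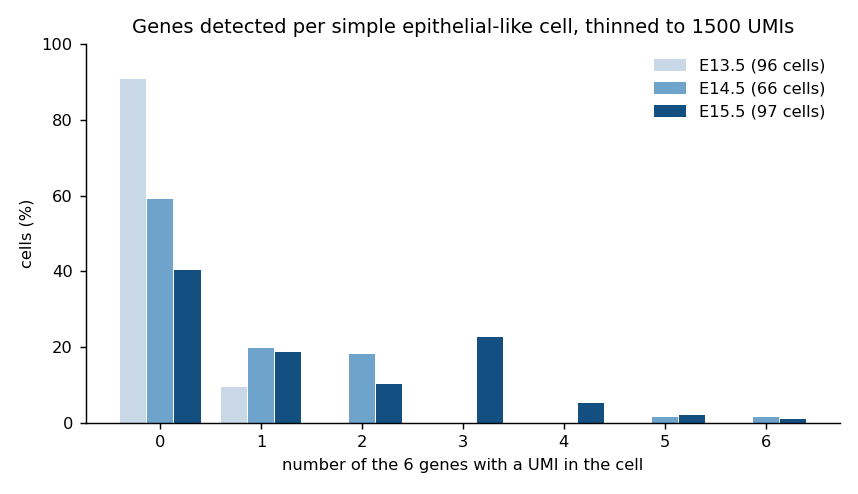
Percent of simple epithelial-like cells (y axis) by the number of the 6 genes with a UMI in the cell (x axis), each cell thinned to 1500 UMIs, for 96, 66 and 97 cells by stage. Cells with none are 90.6% at E13.5 and 40.2% at E15.5, and cells with 3 genes reach 22.7% at E15.5.

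Pairs of genes were then counted in the thinned cells of E15.5, as the share of cells with a second gene among the cells with and without the first. Other gene pairs were not counted, so nothing particular to these genes is read from the shares. Of the cells with Lypd2, 64.7% held Aox2 (46.5 to 80.3), against 12 of the 63 cells without Lypd2 (10.2 to 30.9%). Of the cells with Cbr2, 69.0% held Lypd2 (49.2 to 84.7), against 20.6% of the others (11.7 to 32.1). Bpifa1 was in 9 of 34 cells with Lypd2 and in 1 of 63 without it. At full depth all 12 Bpifa1 cells held Lypd2, 9 held Cbr2, 9 held Aox2 and 7 held Scgb1c1. The pairs with a lower share were those of Sult1e1 with Aox2 and with Bpifa1. Of the 20 cells with Sult1e1, 6 held Aox2 (11.9 to 54.3%), against 36.4% of the cells without it (25.7 to 48.1), and these intervals overlap widely. This direction turned at full depth, where 22 of 36 cells with Sult1e1 held Aox2 (61.1%, 43.5 to 76.9), against 38.5% of the cells without it (29.4 to 48.3). The pair of Bpifa1 and Sult1e1 was lower at both depths at E15.5, with wide intervals. At full depth 2 of 12 Bpifa1 cells held Sult1e1 (16.7%, 2.09 to 48.4), against 25.6% of the other cells (18.4 to 33.8). At E14.5 the direction was the opposite, with Sult1e1 in 3 of 4 Bpifa1 cells (75.0%, 19.4 to 99.4) and in 20.6% of the others (13.2 to 29.7). Cells with a gene were also deeper: those with Lypd2 had a median of 4181 UMIs and those without it 1605, and those with Sult1e1 4554 and 1678. Thinning equalizes the UMIs but not the RNA that other cells may have added, whose part was not tested.

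**Figure D4:**
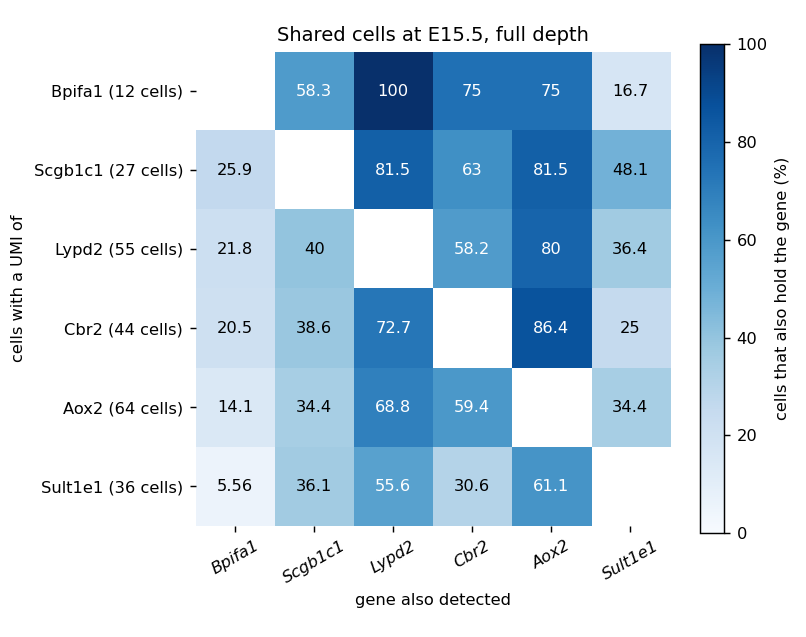
Percent of the E15.5 simple epithelial-like cells with a UMI of the row gene that also hold the column gene, at full depth (color scale 0 to 100%; number of cells in brackets). All 12 Bpifa1 cells hold Lypd2 and 86.4% of the 44 Cbr2 cells hold Aox2, while 16.7% of the Bpifa1 cells hold Sult1e1.

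Sub-clusters of the simple class, made without the 6 genes, differed in which of the genes they held. Sub-cluster 2 (87 cells) held 78.2% of the Scgb1c1 UMIs of the class, 53.0% of those of Sult1e1, 48.8% of Aox2, 48.5% of Bpifa1, 45.9% of Cbr2 and 45.5% of Lypd2. Sub-cluster 6 had 22 cells, 0, 11 and 11 by stage, and was led by Reg3g, which encodes a secreted antimicrobial lectin, with the secretory cell enzyme gene Cyp2f2 among its top 10 genes. It held 40.6% of the Bpifa1 UMIs, 31.1% of those of Lypd2 and 20.3% of those of Cbr2. In it Bpifa1 stood at 3971 CPM (3560 to 4418) in 8 cells, or 1278 CPM without the cell with the most, Lypd2 at 1699 CPM (1433 to 1999) in 18 cells and Cbr2 at 1019 CPM (816 to 1257) in 12 cells, or 542 CPM without its top cell. Sult1e1 stood at 35.1 CPM there (7.25 to 103, 3 UMIs), against 793 CPM in sub-cluster 2 (693 to 902). Scgb1c1 stood at 46.9 CPM in sub-cluster 6 (12.8 to 120, 4 UMIs) and 571 CPM in sub-cluster 2 (487 to 665), or 338 CPM there without the top cell. The 69 cells of sub-cluster 4 had a median of 4131 UMIs and were led by the neuronal adhesion gene Cntn4. They held 45.5% of the Aox2 UMIs, 39.8% of the Sult1e1 UMIs and 33.3% of the Cbr2 UMIs, of which 1 cell carried 81 of 143. All 91 Bpifa1 UMIs of sub-cluster 4 were in 1 cell. Sub-cluster 3 (37 cells led by Oc90, none at E15.5) held 0 UMIs of all 6 genes, an upper limit of 28.8 CPM for each. Sub-cluster 5 was led by Neurod1, a neuronal transcription factor gene. In sub-clusters 1 and 5 no gene had more than 23 UMIs.

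Inside sub-cluster 6 the stages also differed by gene. Bpifa1 had 10 UMIs in 2 of 11 cells at E14.5 (207 CPM) and 329 UMIs in 6 of 11 cells at E15.5 (8902 CPM). Lypd2 had 103 UMIs in 10 of 11 cells at E14.5 (2128 CPM) and 42 in 8 of 11 at E15.5 (1136 CPM). Of the 329 Bpifa1 UMIs 240 were in 1 cell, and 3064 CPM (2461 to 3771) were left without it. Of the 10 at E14.5, 9 were in 1 cell. In this small group Lypd2 was thus in 10 of 11 cells at the stage when 2 cells held Bpifa1.

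The 12 simple cells with Bpifa1 at E15.5 were set beside the 55 with Aox2 but no Bpifa1 and the 78 with neither. Reg3g stood at 1391 CPM in the Bpifa1 cells (1119 to 1710, in 10 of 12 cells) and 111 CPM in the Aox2 cells (76.8 to 155, in 4 of 55). Of the 12 Bpifa1 cells 6 were in sub-cluster 6, which is led by Reg3g, so this contrast in part restates that grouping. In the Aox2 cells 26 of 34 Reg3g UMIs were in 1 cell, and 26.6 CPM were left without it. Aox3, another aldehyde oxidase gene, stood at 464 CPM (313 to 662) and 29.3 CPM (13.4 to 55.7), or 9 UMIs, of which 6 were in 1 cell. Papss2, which makes the sulfate donor used by sulfotransferases, went the other way, with 1 UMI in the Bpifa1 cells (an interval of 0.391 to 86.1 CPM) and 430 CPM in the Aox2 cells (360 to 510). Cyp2g1, an olfactory mucosa cytochrome gene, had 0 UMIs in the Bpifa1 cells, an upper limit of 46.4 CPM, and 51 UMIs in 20 of the 55 Aox2 cells (166 CPM, 124 to 219). In the 78 cells with neither gene, Reg3g had 0 UMIs, Aox3 4, Papss2 13 and Cyp2g1 2. Without the top cell Papss2 stood at 44.1 CPM there (20.2 to 83.8). Papss2 and Cyp2g1 were thus high in the Aox2 cells alone among the 3 groups. Sult1e1 stood at 77.3 CPM (25.1 to 180, with 4 of 5 UMIs in 1 cell) in the Bpifa1 cells, 401 CPM (333 to 479) in the Aox2 cells and 576 CPM (479 to 688) in the cells with neither. Of the 123 UMIs in the last group 57 were in 1 cell. Without the top cell of each group the Aox2 cells and the cells with neither stood at 332 (268 to 407) and 336 CPM (260 to 428), so the difference between these groups was not kept. All 143 UMIs of the secreted protein gene Wfdc18 were in 10 cells that held neither gene. The median depths were 3517, 2959 and 1604 UMIs in the same order. The 11 mesenchymal markers summed to 1917, 727 and 904 CPM and the 9 neuronal markers to 170, 1242 and 1073 CPM, and the part of this in the differences was not tested. At E14.5 the 4 cells with Bpifa1, of 34282 UMIs in all, held 15, 24, 1 and 0 UMIs of Sult1e1. Low Sult1e1 in the Bpifa1 cells was thus seen at E15.5 and not at E14.5.

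Among the other epithelial classes, Lypd2 and Cbr2 were also detected in ciliated-like cells. Lypd2 had 54 UMIs in 9 of 11 cells at E14.5 (896 CPM, 673 to 1169) and 36 UMIs in 10 of 16 cells at E15.5 (346 CPM, 243 to 480). Cbr2 had 17 UMIs in 7 of 11 cells (282 CPM, 164 to 452) and 25 UMIs in 6 of 16 cells (241 CPM, 156 to 355). Bpifa1 had 0 UMIs there at E14.5 and 13 UMIs in 4 cells at E15.5, of which 7 were in 1 cell. Aox2 had 4 UMIs, all in 1 cell, and Scgb1c1 and Sult1e1 had 0 in all 27 cells, an upper limit of 18.3 CPM. Thinned, Lypd2 was in 5 of 9 ciliated-like cells at E14.5 (55.6%, 21.2 to 86.3) and 4 of 14 at E15.5 (28.6%, 8.39 to 58.1). The share in simple cells was 19.7% (10.9 to 31.3) and 35.1% (25.6 to 45.4), so the direction differed by stage and the intervals overlapped at both. In stratified epithelial-like cells Cbr2 had 1, 6 and 84 UMIs by stage, or 11.8 (0.299 to 65.7), 41.2 (15.1 to 89.7) and 147 CPM (118 to 183), in 1 of 21, 3 of 53 and 27 of 176 cells. Lypd2 had 2, 2 and 18 UMIs there. The other 4 genes had between 1 and 4 UMIs in all 250 stratified cells.

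**Figure D5:**
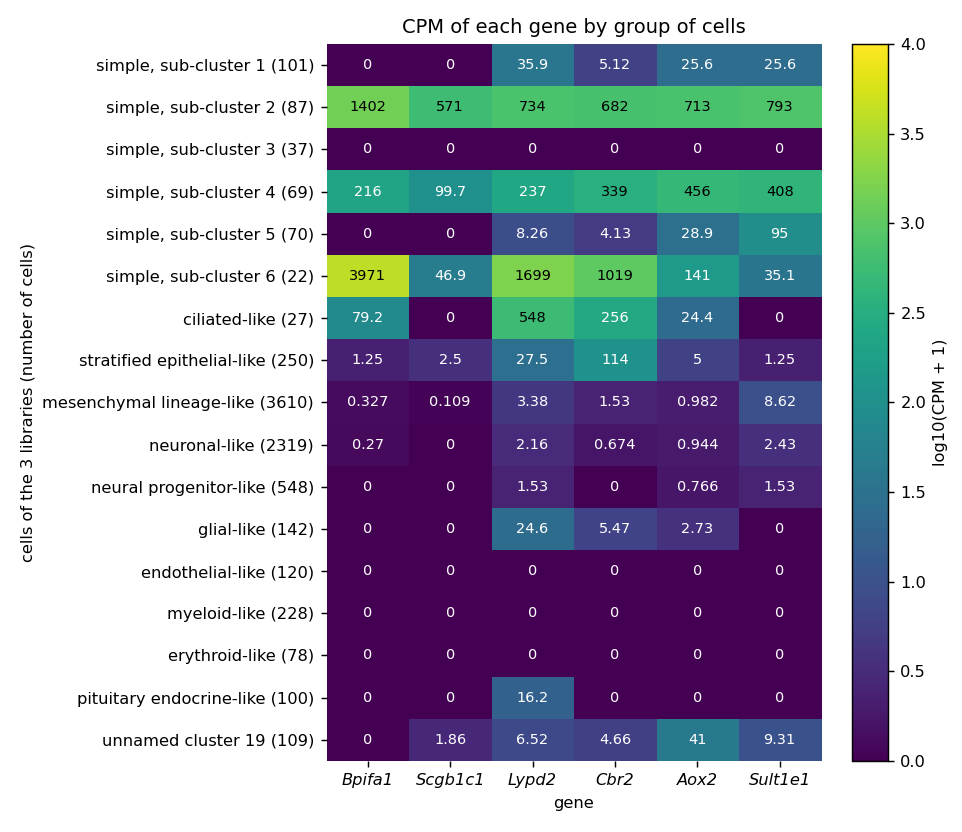
CPM of each gene (columns) in the 6 sub-clusters of the simple class and in the other classes (rows, number of cells of all 3 libraries in brackets), with color on a log10(CPM + 1) scale. Sub-clusters 2, 4 and 6 carry most of the counts, sub-cluster 3 is at 0 throughout, and outside the epithelium Aox2 stands at 41.0 CPM in unnamed cluster 19.

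Outside the epithelium Bpifa1, Scgb1c1 and Cbr2 had few UMIs and the other genes more. Of all UMIs in kept cells, 0.585% of those of Bpifa1 (5 of 854), 1.39% of Scgb1c1 (3 of 216) and 4.42% of Cbr2 (26 of 588) lay in the 7254 cells of other kinds. The share was 10.7% for Lypd2 (69 of 647), 12.6% for Aox2 (62 of 492) and 20.1% for Sult1e1 (109 of 542). The median over the 7320 genes with at least 20 CPM in the simple class was 89.4%, and 0.273% of them were under 10%, as were 3 of the 6. This breadth was used in choosing the genes, so nothing is read from it. The UMIs outside were spread differently by gene. Those of Lypd2 lay in 57 cells, 51 of them with 1 UMI, and 31 were in 30 of the 3610 cells of the mesenchymal lineage (3.38 CPM). The 26 of Cbr2 lay in 22 cells, with at most 2 in any. Of the 79 Sult1e1 UMIs in the mesenchymal lineage, 67 were in 1 cell at E14.5 with 34528 UMIs in all, of which 25 were UMIs of epithelial markers. Of the 9 Lypd2 UMIs in glial-like cells, 8 were in 1 cell at E14.5 of 14301 UMIs, with 7 epithelial-marker UMIs. Aox2 had 44 UMIs in 9 of the 109 cells of unnamed cluster 19 (41.0 CPM), whose leading genes were the muscle genes Actc1, Myog and Ttn and whose median depth was 5525 UMIs. Of these 9 cells 8 held at least 2 epithelial-marker UMIs, as did 40.4% of the cluster. Over all non-epithelial cells, 5.97% held at least 2 epithelial-marker UMIs, against 40.0% (Bpifa1, 5 cells) to 66.7% (Scgb1c1, 3 cells) of those with a UMI of a gene. The latter were also deeper, with medians from 2649 UMIs (Cbr2) to 18772 (Scgb1c1), against 1921 over all non-epithelial cells, and the part of depth in these shares was not tested. Apart from the removal of the highest doublet scores, whether such barcodes hold more than 1 cell was not tested.

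Relatives of the 6 genes and other genes of airway secretion were followed in the simple class through 10 lists. Over all lists, 22 of 73 genes with a mean of at least 5 CPM were higher by over 1 on the log2 scale at E15.5 than at E14.5 and 3 were lower. Among 11741 genes, 10.3% were higher and 10.1% were lower. The ratio's exact interval includes no change for Slurp1, Sult1a1, Sult1b1, Muc1, Tff2, Foxa1 and Creb3l1 among the higher genes and for Lypd6 among the lower ones, each on at most 12 UMIs per library. Some listed genes, such as Wfdc2, Foxa1 and Elf3, also belong to the markers that named the class. Of the 15 PLUNC and BPI fold relatives of Bpifa1, 13 had 0 UMIs at every stage. Only Lbp (5 UMIs at E15.5) and Pltp (2, 0 and 1 UMIs) were seen, and none reached 5 CPM. All 8 secretoglobin relatives of Scgb1c1 had 0 UMIs at every stage in the simple class. Scgb1c1 was thus the listed secretoglobin with UMIs there, and Bpifa1 the PLUNC gene.

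Of 23 Ly6 relatives of Lypd2, 11 had 0 UMIs, 6 were tested, 1 was higher, 2 were lower, and the median log2 ratio was -0.20. The higher gene was Slurp1, a secreted Ly6 protein gene, with 1, 1 and 10 UMIs by stage. Lypd6 (22.4 to 8.55 CPM) and Lypd6b (42.0 to 15.4 CPM) were the lower ones, each on under 20 UMIs per library. Of 5 carbonyl reductases and close dehydrogenases tested, 1 was higher and the median was 0.32. That gene was Dcxr, which encodes a dicarbonyl and xylulose reductase, at 12.7, 53.2 and 164 CPM by stage, 3.09-fold from E14.5 to E15.5 (1.87 to 5.35). Cbr1, a cytosolic carbonyl reductase gene, stood at 53.2, 39.2 and 59.8 CPM.

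Among the aldehyde oxidases and the genes of the molybdenum cofactor, 2 of 5 were higher and the median was 0.69. Aox3 had 0, 1 and 43 UMIs by stage, and Mocos, whose product adds the sulfur that activates the cofactor of aldehyde oxidases, had 1, 1 and 17 UMIs. Gphn, which works in the synthesis of the cofactor, stood at 188, 288 and 465 CPM. Of 10 sulfotransferases and sulfate donor synthases 4 were higher, none was lower, and the median was 0.63. Papss2 went from 78.3 to 250 CPM between E14.5 and E15.5 (3.19-fold, 2.12 to 4.96), while its relative Papss1 stood at 47.6 and 34.2 CPM. Sult1c1, a sulfotransferase gene, had 0, 8 and 38 UMIs by stage. Sult1a1 had 7 UMIs and Sult1b1 8 at E15.5.

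Of 11 airway secretory genes tested 5 were higher, and the median was 0.98. They were Wfdc18 (0, 3 and 143 UMIs), the mucin genes Muc16 (63.3 CPM at E15.5) and Muc1 (20.5 CPM), the mucin folding gene Agr2 (58.8 to 185 CPM) and Tff2 (7 UMIs at E15.5). Wfdc2, a secreted protease inhibitor gene, stood at 333 and 316 CPM, and Cyp2f2 at 78.3 and 75.2 CPM, both with 0.950 to 0.960 times the E14.5 level. Of 6 olfactory gland and supporting cell genes 3 were higher, and the median was 1.67. They were Ermn (47.6 to 292 CPM), Cyp2a5 (14.0 to 76.9 CPM) and Sec14l3 (8 UMIs at E15.5). Ugt2a1, the odorant-modifying glucuronosyltransferase gene, stood at 35.5, 120 and 236 CPM by stage.

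Among 18 airway epithelial transcription factors 6 were higher and 1 was lower, with a median of 0.29. Otx2 stood at 61.6 and 185 CPM at the last 2 stages (3.00-fold, 1.88 to 4.99) and Cebpd at 11.2 and 47.9 CPM (4.28-fold, 1.50 to 16.8). The other higher ones, Foxa1, Elf3, Elf5 and Creb3l1, stood between 8.55 and 59.8 CPM at E15.5. Foxa1 and Creb3l1 each had 1 UMI at E14.5 and 5 at E15.5 (an interval of 0.342 to 145). Elf3 and Elf5 each had 10 and 35 UMIs (2.14-fold, 1.04 to 4.84). Pax9, a palate regulator, was the lower one, with 16 UMIs at E14.5 and 6 at E15.5 (0.229-fold, 0.0734 to 0.617). Of the 12 genes of the general secretory pathway none passed in either direction, and the median was -0.14. Sec61b, part of the channel through which secreted proteins enter the endoplasmic reticulum, stood at 311 and 402 CPM, and Kdelr2, a retrieval receptor, at 215 and 125 CPM.

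Likeness of pattern was measured by Pearson's r of log2 CPM over 50 sums of cells by cluster and stage, for 14468 genes, as a description. The sums share libraries and clusters and are not independent. The genes most like Bpifa1 were Pon1 (r = 0.94) and the water channel gene Aqp5 (0.94), followed by Sult1c1 (0.94) and Scgb1c1 (0.93). Lypd2 was most like Wfdc2 (0.76) and Pof1b (0.74), Cbr2 most like Krt7 (0.78) and Aldh1a7 (0.78), and Aox2 most like Muc4 (0.83) and Ugt2a1 (0.82). Sult1e1 was most like Myo5c (0.84) and Aox2 (0.80). Between the 6 genes r ran from 0.45 (Cbr2 and Sult1e1) to 0.93 (Bpifa1 and Scgb1c1).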

How the data were processed

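The deposited values are raw counts of UMIs. Per the file headers the authors used Cell Ranger 6.1.2, with build mm10 per the submitters' processing notes. The annotation is not given in the sources used here. The 6 genes and all lists were chosen with earlier results of these data known. Barcodes with under 500 genes (544, 304 and 473) or over 20% mitochondrial UMIs (0) were left out. Scrublet's automatic threshold called 0, 4 and 1 cells, which was judged too few, and it was not used. Instead the top-scoring cells were removed at 0.8% per 1000 barcodes (109, 25 and 56 cells).

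The 7917 cells were clustered together with scanpy 1.11.5, with no correction between libraries, on 2000 variable genes that left out the 6 genes (30 components, 15 neighbours, Leiden resolution 1). A cluster was named from at least 3 markers, each at 20 CPM, 2 times the lower quartile and the mean over clusters. The order of these rules was settled while clusters were being named. No cluster could be named muscle-like, so the planned background of endothelial-like, glial-like and muscle-like cells lacked the last. The simple class was sub-clustered at resolution 0.5.

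UMIs were summed per class and library to CPM with exact 95% Poisson intervals. Log2 ratios used 1 CPM added to both sides, and folds did not. Folds carry exact conditional intervals and shares exact Clopper-Pearson intervals, while the limit for a count of 0 is 3 counts. Genes of few UMIs can pass a log2 ratio of 1 by counting error alone. CPM is not scaled to gene length, so levels of different genes were not ranked. With 1 library per stage no test was run. The calculations were checked on simulated data. Named genes were the 6 genes, the 2 largest and 2 smallest ratios and 2 highest levels of each list, the 2 genes most like each of the 6, and class markers. Other genes in the text were chosen after their values were seen.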

Additional observations from a re-analysis of the deposited data

How the results depend on the processing

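No paired analysis was possible because each stage had 1 library. In every setting that gave a value, all 6 genes were higher by over 1 on the log2 scale at E14.5 than at E13.5 in the simple class. In the main setting 17% of 11494 genes were. That share was not counted in the other settings, among them sub-cluster 2 with 14 and 16 cells, so nothing is read from the 6. At E15.5 against E14.5 the count was 4 of 6, with 10.3% of all genes, or 5 with at least 1000 genes per cell (10.3% again), and 2 in sub-cluster 2 alone (30.5%), a setting chosen after seeing the data that keeps fewer cells. At resolution 0.5 no cluster was simple epithelial-like, and with each library clustered alone none was at E14.5, so these settings gave no such ratio. The share of E15.5 simple cells with at least 1 gene (59.8%) was 72.9% with no doublets left out and 73.7% with each library clustered alone. The share with at least 3 genes (30.9%) was 21.1% with at least 1000 genes per cell and 21.1% with thinning to 1000 UMIs. The share of the 6 genes' UMIs outside the epithelium (8.21%) was 16.9% with each library clustered alone and 5.17% in cells with at most 10000 UMIs, the latter chosen after seeing the data. The number of list genes higher (22 of 73, with 10.3% of all genes) was 41 of 103 without a filter on low values (22.0% of 16663 genes) and 17 of 73 with a pseudocount of 5 CPM (6.67% of all genes). The causes were not tested. The log2 ratio of E14.5 to E13.5 of Lypd2 ran from 2.59 to 8.93. The highest value was that of sub-cluster 2, where Lypd2 had 0 UMIs in 14 cells at E13.5. Its size was thus set by the 1 CPM added to both sides. Over these settings the log2 ratio of E15.5 to E14.5 ran from 0.10 to 2.89 for Bpifa1, from 0.69 to 2.44 for Scgb1c1, from -0.17 to 2.26 for Lypd2 and from -2.34 to 0.06 for Sult1e1, and stayed above 1 for Cbr2 (2.00 to 3.81) and Aox2 (1.19 to 2.23). Counts under about 10 UMIs, and classes of 11 to 27 cells, limit what can be seen.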
